A study of Rattus norvegicus with 12 samples.

Results

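The 10 genes described here encode enzymes that make the sphingolipids and galactolipids of myelin, together with aspartoacylase. They were chosen by symbol (Ugt8, Gal3st1, Fa2h, Cers2, Degs1, Sptlc1, Sptlc2, Elovl1, Aspa and Ugcg) out of 30562 genes in the count table. Each symbol matched 1 gene, and all 10 passed the filter on low counts that left 8938 genes for testing. Bulk RNA-seq compared oligodendrocyte precursor cells (OPCs) exposed to an FiO2 of 5% (mild-hypo-OPCs, 6 libraries) with control OPCs (standard OPCs, 6 libraries). All cells were primary wild-type OPCs from the cerebral cortex of newborn Sprague-Dawley rats (P1 or P2), purified by shaking and grown with FGF-2 and PDGF-AA, and no group carried a transgene. The labels give 6 hours of hypoxia, whereas the methods describe days for the mild exposure. The labels number the libraries of each group 1 to 6 and do not say which came from separate cultures, so the p-values measure the spread between these libraries, which may be partly technical. The study describes fewer biological replicates per group than there are libraries here.

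Myelin is unusually rich in galactosylceramide and its sulfated form, sulfatide. Their synthesis starts in the endoplasmic reticulum, where serine palmitoyltransferase condenses serine with palmitoyl-CoA, ceramide synthases add a fatty acid, and a desaturase that uses molecular oxygen turns dihydroceramide into ceramide. In oligodendrocytes much of the fatty acid is very long and 2-hydroxylated, a galactose is then added to ceramide, and part of the product is sulfated in the Golgi. The competing addition of glucose leads to glucosylceramide and the gangliosides.

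Depth differed with the condition. Mild-hypo-OPC libraries had 4111669 to 9022324 counts in total, standard OPC libraries had 1356079 to 2797513, and ribosomal RNA genes took 17.4% to 25.2% and 23.9% to 38.4% of them. Values are therefore given as CPM scaled with TMM factors, that is, relative to the counts of the 8938 tested genes in a library. The groups were tested with edgeR's quasi-likelihood method over all 8938 genes. Log2 changes (log2 of the fold change, with the standard error, SE) are those of mild-hypo-OPCs over standard OPCs. The marker genes of the labelled cell type were present. The summed level of 6 OPC markers (Pdgfra, Cspg4, Ptprz1, Sox10, Olig1, Olig2) was 2550 to 2868 CPM in mild-hypo-OPCs and 2271 to 2843 CPM in standard OPCs. The summed level of 8 myelinating oligodendrocyte markers was also high, at 10189.6 to 11526.5 CPM and 6799 to 10339.8 CPM, so the cultures held transcripts of maturing cells in both groups.

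Ugt8 and Fa2h were the members that rose in mild-hypo-OPCs, by 17.2% and 23.0%. None of the 10 fell with edgeR, limma-voom or DESeq2. The other 8 were not called by edgeR or limma-voom, and DESeq2 called 1 of them, Degs1, higher. Thus 2 of 10 members were called higher, against 7.00% of all genes tested, and 0 of 10 were called lower, against 17.0%. At an unadjusted p under 0.05, 5 of the 10 members passed, compared with 36.3% of all genes. The median log2 fold change of the members was 0.18, whereas that of all genes tested was -0.003. In none of the members did the libraries of the groups separate completely, while this was the case for 8.35% of all genes (2.94% with mild-hypo-OPCs higher and 5.40% with them lower). The calls over all genes, 626 higher and 1520 lower, became 5515 and 405 when only library size was used for scaling and 1136 and 1255 with upper-quartile factors. With library size only, the median of all genes was 0.43 and 9 of the 10 members were called higher.

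**Figure D1:**
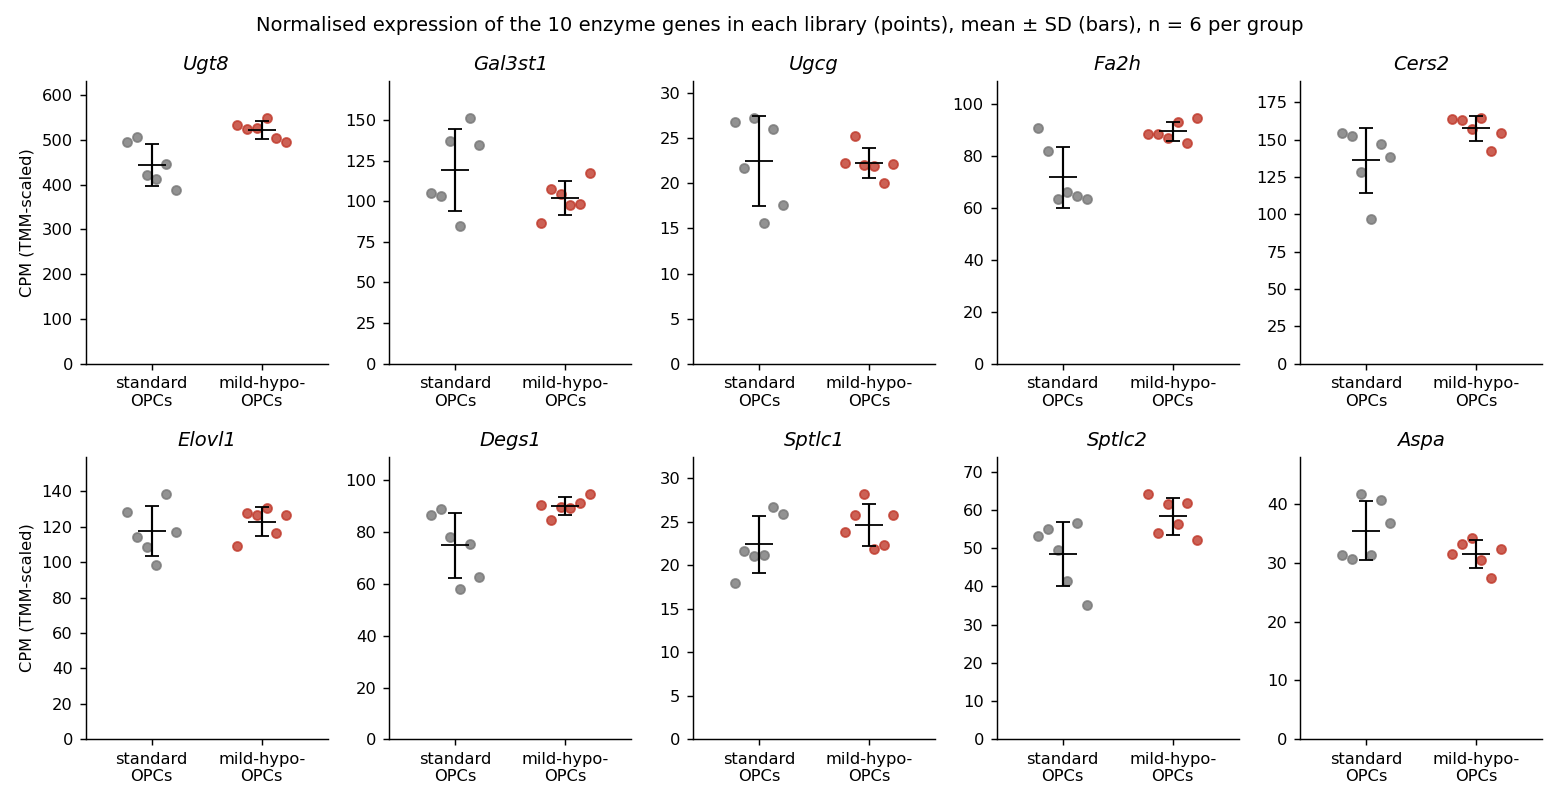
Normalised expression (CPM, TMM-scaled, linear axes from 0) of the 10 enzyme genes; each point is 1 library, and bars give the mean ± SD of 6 standard OPC or 6 mild-hypo-OPC libraries. The mild-hypo-OPC libraries of Ugt8 lie at 495 to 549 CPM against 388 to 506 CPM in standard OPCs, and in every panel the standard OPC libraries are the more widely spread.

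The promoter sequences of the galactolipid branch are shown first, because its first enzyme and its hydroxylase rose while its sulfotransferase had a negative change. Promoter windows from RefSeq (GRCr8, 250 bases before to 50 after the annotated start) were matched for 9 of the 10 members. Capitals mark GCGTG on either strand, which is one form of the core of the hypoxia response element.
Ugt8 (chr2:217007118-217007417, minus strand): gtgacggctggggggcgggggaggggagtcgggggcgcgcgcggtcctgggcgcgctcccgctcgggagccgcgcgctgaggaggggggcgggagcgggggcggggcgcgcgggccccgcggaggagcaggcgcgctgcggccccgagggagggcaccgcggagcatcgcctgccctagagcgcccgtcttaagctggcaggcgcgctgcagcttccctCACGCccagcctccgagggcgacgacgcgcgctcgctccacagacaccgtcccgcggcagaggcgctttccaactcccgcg
Fa2h (chr19:56273431-56273730, minus strand): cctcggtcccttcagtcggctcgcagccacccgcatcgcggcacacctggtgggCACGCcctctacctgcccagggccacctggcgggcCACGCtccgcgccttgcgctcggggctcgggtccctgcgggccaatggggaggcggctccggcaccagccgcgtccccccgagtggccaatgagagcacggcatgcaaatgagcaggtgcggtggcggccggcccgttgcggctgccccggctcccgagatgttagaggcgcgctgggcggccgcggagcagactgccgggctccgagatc
Gal3st1 (chr14:83094135-83094434, plus strand): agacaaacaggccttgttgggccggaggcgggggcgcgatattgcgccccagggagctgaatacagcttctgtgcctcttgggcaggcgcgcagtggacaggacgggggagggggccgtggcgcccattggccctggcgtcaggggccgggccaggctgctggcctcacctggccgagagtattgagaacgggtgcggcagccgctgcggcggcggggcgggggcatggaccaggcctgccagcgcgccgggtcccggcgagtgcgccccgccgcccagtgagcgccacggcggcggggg
The window of Ugt8 held 1 match, that of Fa2h held 2, and that of Gal3st1 held 0. Among members that edgeR did not call, Degs1 held 3, Cers2 held 2, Sptlc1 and Sptlc2 held 1 each, and Elovl1 and Aspa held 0. Across the 9 members, 6 windows (Ugt8, Fa2h, Cers2, Degs1, Sptlc1 and Sptlc2) contained GCGTG, compared with 29.75% of 33365 promoter windows of this length. The windows of Ugt8, Fa2h and Gal3st1 were rich in G and C (79.3%, 74.3% and 74.7%), and no match was weighed against base composition. The other core form, ACGTG, was in 0 of 9 windows, compared with 19.28% of all windows. CTGGCAC, 1 form of the motif bound by the myelin regulator MYRF, was in 0 of 9 windows and in 4.76% of all windows, and ACAAAG, a SOX-type motif, was in the windows of Sptlc1 and Elovl1 and in 18.76% of all windows. All motifs were searched on both strands. A match describes these letters only and says nothing of binding.

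Ugt8 (ENSRNOG00000009345) encodes ceramide galactosyltransferase, which makes galactosylceramide. In mild-hypo-OPCs its lowest, median and highest levels were 495, 526 and 549 CPM, and in standard OPCs they were 388, 434 and 506 CPM. Each of the 6 mild-hypo-OPC values exceeded the standard OPC mean, but standard OPC replicates 1 and 2 (495 and 506 CPM) reached into their range. These were the deepest libraries of that group. The mean was 522 ± 19.7 CPM (SD, n = 6) against 445 ± 47.1 CPM (SD, n = 6), a log2 change of 0.23 (SE 0.08, edgeR adjusted p = 0.0390). Behind these levels stood 2681 to 5112 counts of Ugt8 in the libraries of mild-hypo-OPCs, compared with 448 to 1294 in those of standard OPCs. Ugt8 was also called with adjusted p = 0.0207 by limma-voom (0.23) and with adjusted p = 0.00573 by DESeq2 (0.24), and the call was lost without mild-hypo-OPC replicate 4 (adjusted p = 0.0573 from edgeR) and without standard OPC replicate 3, 4, 5 or 6 (adjusted p = 0.0758, 0.0797, 0.0551 and 0.0922 from edgeR). With log2 total count as a covariate its change was 0.02 (adjusted p = 0.998 from edgeR).

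Gal3st1 (ENSRNOG00000042041) encodes cerebroside sulfotransferase, the enzyme that follows Ugt8 and forms sulfatide. Its lowest, median and highest levels were 86.9, 101 and 117 CPM in mild-hypo-OPCs and 84.7, 120 and 151 CPM in standard OPCs. The standard OPC libraries were spread on both sides of the mild-hypo-OPC libraries, with replicates 3, 5 and 6 above all of them and replicate 4 below. Mild-hypo-OPCs averaged 102 ± 10.3 CPM and standard OPCs 119 ± 25.4 CPM (SD, n = 6 each). The log2 change was -0.23 (SE 0.12, 95% interval -0.47 to 0.02, edgeR adjusted p = 0.168) and was not called. With library size only it was 0.21, which is below the median of all genes at that scaling.

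Fa2h (ENSRNOG00000018950) encodes fatty acid 2-hydroxylase, an oxygen-dependent enzyme that supplies the hydroxylated acyl chains of myelin galactolipids. Its lowest, median and highest levels were 85.0, 88.5 and 94.6 CPM in mild-hypo-OPCs and 63.4, 65.5 and 90.6 CPM in standard OPCs. Standard OPC replicate 1 lay inside the mild-hypo-OPC range, replicate 2 (81.9 CPM) lay just under it, and the other 4 standard OPC libraries were between 63.4 and 66.3 CPM. The mean was 89.4 ± 3.71 CPM (SD, n = 6) against 71.7 ± 11.7 CPM (SD, n = 6), a log2 change of 0.30 (SE 0.09, edgeR adjusted p = 0.0258). It was called too with adjusted p = 0.0244 by limma-voom (0.30) and with adjusted p = 0.0118 by DESeq2 (0.31), whereas leaving out standard OPC replicate 3, 4, 5 or 6 ended the call (adjusted p = 0.0659, 0.0543, 0.0586 and 0.0625 from edgeR). In replicates 1 to 3 only, the change was 0.17 for Fa2h and 0.17 for Ugt8 (adjusted p = 0.492 and 0.404 from edgeR), and in replicates 4 to 6 only it was 0.50 and 0.32 (adjusted p = 0.00746 and 0.0333 from edgeR). The change of Fa2h was 0.09 when log2 total count was a covariate (adjusted p = 0.966 from edgeR).

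Some myelinating oligodendrocyte markers also rose. Of the 8 markers in the list 7 were tested, and 4 rose (Mag, Cnp, Cldn11 and Myrf) while 0 fell, against 7.00% and 17.0% of all genes. Mbp, Mog and Mobp were not called (edgeR adjusted p = 0.0555, 0.578 and 0.619). The summed level of the list, most of it Mbp (a mean of 7132 CPM in mild-hypo-OPCs), overlapped between the groups at the edge only (at least 10189.6 CPM in mild-hypo-OPCs and at most 10339.8 CPM in standard OPCs). In bulk samples more cells of a type and more RNA per cell cannot be told apart, and the part of these markers in the changes of Ugt8 and Fa2h was not tested. Some markers of other cells also differed, beside 7.00% of all genes called higher and 17.0% lower. The summed level of 8 microglial markers was 47.5 to 65.8 CPM in mild-hypo-OPCs and 22.1 to 49.6 CPM in standard OPCs. Of 4 tested, Csf1r and C1qb were called higher, Tyrobp lower and C1qa not called. The summed level of 6 neuronal markers was 132 to 152 CPM against 74.0 to 115 CPM, most of it Tubb3 (means of 98.9 and 59.4 CPM). Of 3 tested, Tubb3 was called higher, while Stmn2 (0.47) and Syt1 (0.29) were not called. The untested ones had means of 6.24 against 3.73 CPM (Dlx2), 6.52 against 6.09 CPM (Snap25) and 2.67 against 3.36 CPM (Rbfox3). The summed level of 6 astrocyte markers was 637 to 751 CPM against 606 to 695 CPM. Of 4 tested, Aqp4 was called higher. The other tested astrocyte markers went both ways and were not called (Gfap 0.12, Aldoc -0.12 and Slc1a2 -0.27). The 6 endothelial and mesenchymal markers found in the table, out of 7 listed, summed to at most 2.31 CPM in any library, with Cdh5 and Lum at 0. The part of these cells in the results was not tested.

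Serine palmitoyltransferase, the entry point of the pathway, is formed by the subunits Sptlc1 and Sptlc2. Sptlc1 (ENSRNOG00000010882) had 21.9, 24.8 and 28.3 CPM (lowest, median, highest) in mild-hypo-OPCs, and standard OPCs had a median of 21.4 and a highest value of 26.7 CPM, with replicate 1 the lowest. The ranges overlapped over most of their length, and the log2 change was 0.16 (SE 0.12, 95% interval -0.09 to 0.41, edgeR adjusted p = 0.352). Its change was 0.38 in replicates 1 to 3 only and -0.08 in replicates 4 to 6 only. Sptlc2 (ENSRNOG00000012210), the catalytic subunit, had 52.2, 58.9 and 64.3 CPM in mild-hypo-OPCs and 35.1, 51.3 and 56.6 CPM in standard OPCs. All 6 mild-hypo-OPC libraries were above the standard OPC mean, and the lowest standard OPC libraries were replicates 6 and 4. The log2 change was 0.25 (SE 0.10, 95% interval 0.03 to 0.47, edgeR adjusted p = 0.0897). Sptlc2 was not called over all genes. In edgeR it was called with upper-quartile factors (0.32, adjusted p = 0.0321), with library size only (0.68, adjusted p = 6.15e-05) and without mild-hypo-OPC replicate 6 (0.31, adjusted p = 0.0454).

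Cers2 (ENSRNOG00000021138), the ceramide synthase that prefers very long acyl chains, had 142, 160.0 and 165 CPM in mild-hypo-OPCs and 96.6, 143 and 154 CPM in standard OPCs. Standard OPC replicate 4, the library with the fewest counts, was the lowest, and replicates 1, 2 and 5 lay within the mild-hypo-OPC range. The log2 change was 0.20 (SE 0.09, 95% interval 0.003 to 0.40, edgeR adjusted p = 0.132), which did not pass the test. Elovl1 (ENSRNOG00000028448), an elongase that makes very long saturated fatty acids, had 109, 126 and 130.3 CPM in mild-hypo-OPCs and 98.5, 115 and 139 CPM in standard OPCs. The highest value of all 12 libraries was in standard OPC replicate 5, and the log2 change was 0.06 (SE 0.09, 95% interval -0.12 to 0.24, edgeR adjusted p = 0.665).

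Degs1 (ENSRNOG00000003223) encodes dihydroceramide desaturase, which uses molecular oxygen. Its levels were tight in mild-hypo-OPCs (84.5, 90.0 and 94.8 CPM; coefficient of variation 3.69%) and wider in standard OPCs (58.0, 76.6 and 88.7 CPM; 16.6%). All mild-hypo-OPC libraries were above the standard OPC mean of 74.8 CPM, and standard OPC replicates 1 and 2 again reached their range. The log2 change was 0.24 (SE 0.09, 95% interval 0.05 to 0.44, edgeR adjusted p = 0.0630), just outside the threshold. Degs1 was inside the threshold with DESeq2 (adjusted p = 0.0307) and in further edgeR fits. These were upper-quartile factors (adjusted p = 0.0230), library size only (4.06e-05) and at least 10 counts in every library (0.0478). Leaving out standard OPC replicate 1 or 2 also gave a call (adjusted p = 0.0292 and 0.0280 from edgeR). Its change was 0.08 in replicates 1 to 3 only and 0.49 in replicates 4 to 6 only (adjusted p = 0.723 and 0.00977 from edgeR).

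Ugcg (ENSRNOG00000015644) encodes glucosylceramide synthase, which competes with Ugt8 for ceramide. It had 20.1, 22.1 and 25.2 CPM in mild-hypo-OPCs and 15.6, 23.8 and 27.2 CPM in standard OPCs. The standard OPC libraries surrounded the mild-hypo-OPC libraries on both sides. The log2 change was -0.06 (SE 0.13, 95% interval -0.32 to 0.21, edgeR adjusted p = 0.790), and as few as 17 counts, in standard OPC replicate 4, lay behind it. Its interval reached up to 0.21. Aspa (ENSRNOG00000019659) encodes aspartoacylase, which splits N-acetylaspartate and so releases acetate for lipid synthesis. It had 27.4, 31.8 and 34.2 CPM in mild-hypo-OPCs and 30.6, 34.0 and 41.7 CPM in standard OPCs. All mild-hypo-OPC libraries were below the standard OPC mean of 35.4 CPM, but the ranges overlapped, and the log2 fold change of -0.16 (SE 0.10, 95% interval -0.38 to 0.05, edgeR adjusted p = 0.274) was not called. With library size only, where the median of all genes was 0.43, the changes were 0.37 for Ugcg and 0.27 for Aspa.

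**Figure D2:**
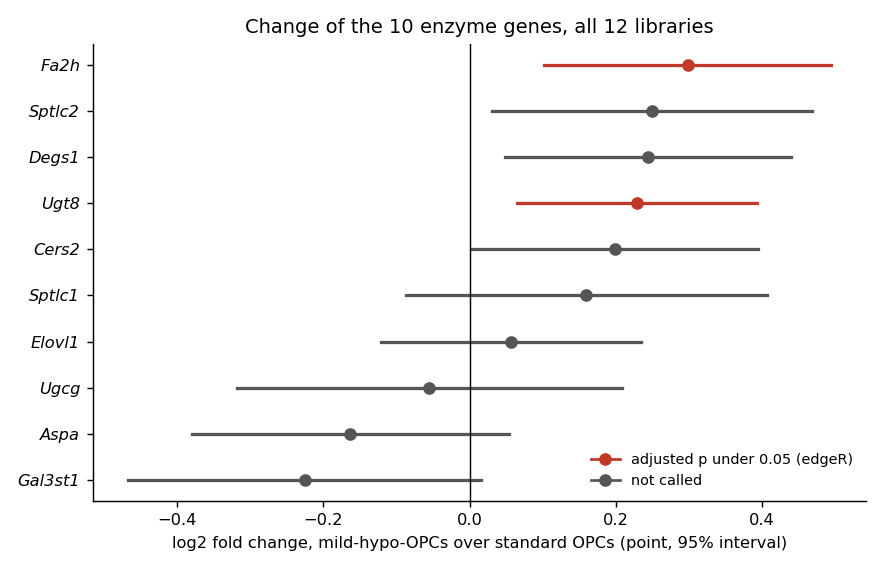
Log2 fold change of each enzyme gene (horizontal axis, mild-hypo-OPCs over standard OPCs; point and 95% interval from edgeR), red where the adjusted p was under 0.05. Fa2h (0.30) and Ugt8 (0.23) are the genes in red, the intervals of Sptlc2, Degs1 and Cers2 also lie above 0, and those of Sptlc1, Elovl1, Ugcg, Aspa and Gal3st1 include 0.

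The scaling factor of a library cancels in the ratio of counts of a pair of genes, so these ratios compare members of the pathway without it. The length of each transcript stays in the ratio, and its absolute size is therefore not interpreted. The log2 ratio of Gal3st1 to Ugt8 was -2.36 ± 0.18 (SD, n = 6) in mild-hypo-OPCs and -1.92 ± 0.39 (SD, n = 6) in standard OPCs, a difference of -0.44. The standard OPC libraries fell into separate levels in this ratio, with replicates 3, 5 and 6 between -1.62 and -1.53 and replicates 1, 2 and 4 between -2.30 and -2.24, inside the range of mild-hypo-OPCs (-2.62 to -2.08). The log2 ratio of Ugt8 to Ugcg, the galactose branch against the glucose branch, was 4.55 ± 0.11 against 4.33 ± 0.29 (SD, n = 6 each), and the mild-hypo-OPC libraries lay within the range of standard OPCs. The same held for Fa2h to Cers2 (-0.82 ± 0.07 against -0.92 ± 0.24) and Sptlc2 to Sptlc1 (1.24 ± 0.20 against 1.10 ± 0.39). The difference for Sptlc2 to Sptlc1, 0.14 with all libraries, was -0.17 in replicates 1 to 3 and 0.45 in replicates 4 to 6, and that for Fa2h to Cers2 went from 0.02 to 0.19. No test was run on these ratios, since the genes were chosen with results known.

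**Figure D3:**
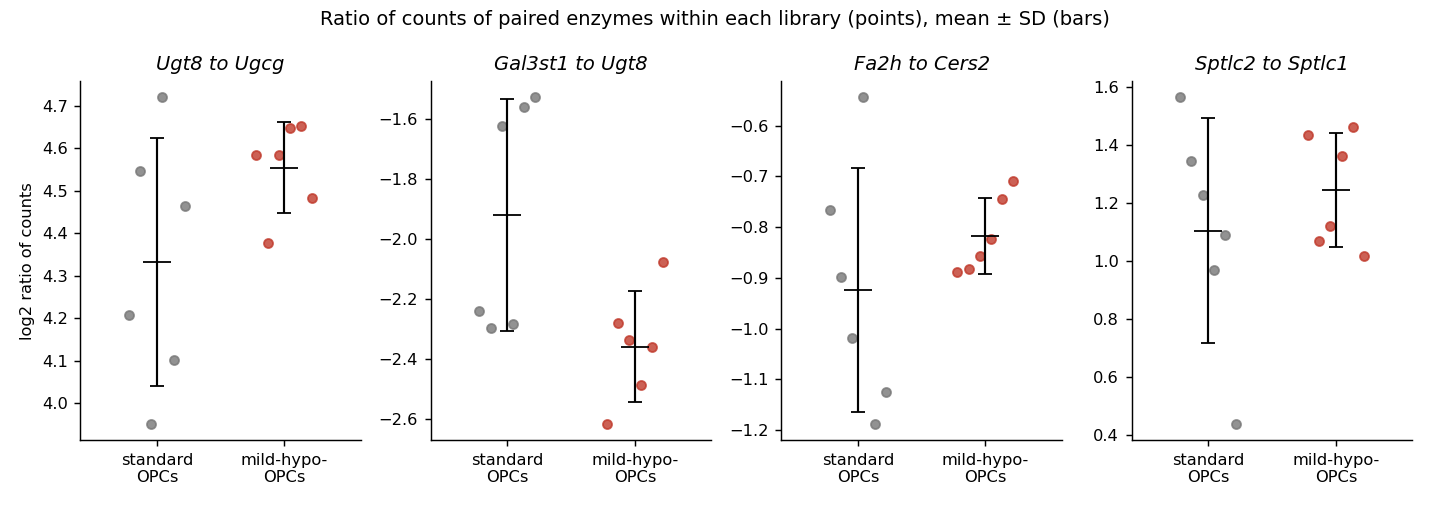
Log2 ratio of counts (vertical axes, not starting at 0) of 4 pairs of enzyme genes within each library (points), with mean ± SD (bars) of 6 libraries per group. Gal3st1 to Ugt8 has the largest difference between the means (-0.44), with 3 standard OPC libraries above all mild-hypo-OPC libraries, and the other 3 pairs overlap over the whole range of mild-hypo-OPCs.

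Within the groups the members did not all vary together. After each group mean was removed, the 45 pairs of members had a median Pearson r of 0.39 over the 12 libraries, and 33 of the 45 were positive. Ugt8 and Fa2h had an r of 0.79, Ugt8 and Degs1 0.76 and Gal3st1 and Aspa 0.79, whereas Fa2h and Sptlc1 had -0.59 and Fa2h and Aspa -0.57. Over all genes tested, those most like Ugt8 in this measure were Rapgef5, LOC679863 and Arel1 (r = 0.93 for each), and those most like Fa2h were Slc35c1 (0.93), Bace1 (0.92) and Wars1 (0.92). For Gal3st1 they were Cnot8 (0.95), Syap1 (0.94) and Cnih2 (0.94). These are descriptions, since the libraries also share depth and composition. The genes most like a member were picked for the highest r over all tested genes with a symbol, a choice that raises r by itself.

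The wider sphingolipid network was read from a list of 74 other genes, of which 57 were tested. In this list edgeR called 3 genes higher and 7 lower, against 7.00% and 17.0% of all genes, with a median log2 fold change of 0.05. Among 9 tested genes of ceramide synthesis edgeR called 0 higher and 3 lower, while limma-voom and DESeq2 called 2 lower (Sptssa and Ormdl2). Sptssa, a small activating subunit of serine palmitoyltransferase, had 45.8, 54.7 and 62.3 CPM (lowest, median, highest) in mild-hypo-OPCs and 54.4, 89.1 and 116 CPM in standard OPCs, a log2 change of -0.63 (SE 0.14, edgeR adjusted p = 0.00263). Ormdl2, one of the ORMDL inhibitors of the same enzyme, fell by 0.59 on the log2 scale (SE 0.15, edgeR adjusted p = 0.00691), while Ormdl1 (0.24, adjusted p = 0.269) and Ormdl3 (-0.32, adjusted p = 0.0587) were not called. Sptssa was not called with library size only (-0.20, adjusted p = 0.209), in replicates 1 to 3 (-0.34, adjusted p = 0.258) or with the covariate of log2 total count (-0.07, adjusted p = 0.991), all from edgeR. Ormdl2 was not called in the same settings (adjusted p = 0.340, 0.201 and 0.540 from edgeR). Cers1 was called lower (-3.46, adjusted p = 0.0236 from edgeR) but had a median of 0 CPM in both groups and at most 31 counts in any library, and the call was absent with voom weights (limma, adjusted p = 0.129), with DESeq2 (adjusted p = 0.314) and in edgeR without standard OPC replicate 3 (adjusted p = 0.0614). Cers1 passed the filter on low counts only through standard OPC replicate 2, without which it was not tested, and it was not tested under filterByExpr either. In RefSeq (GRCr8) Cers1 shares its locus with Gdf1.

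Of 10 tested genes of fatty acid supply and elongation, 0 rose and 2 fell, against 7.00% and 17.0% of all genes (DESeq2 also called Elovl5 higher). Hacd1, a 3-hydroxyacyl-CoA dehydratase of the elongation cycle, had 11.5 to 17.5 CPM in mild-hypo-OPCs and 19.5 to 35.9 CPM in standard OPCs. Its libraries did not overlap between the groups, which held for 5.40% of all genes with mild-hypo-OPCs lower. The log2 change of Hacd1 was -0.57 (SE 0.15, edgeR adjusted p = 0.0101), but 0.17 with the covariate of log2 total count. Fasn, the fatty acid synthase, had a log2 change of -0.28 (edgeR adjusted p = 0.0399, but 0.17 with library size only), a call that was kept in 2 of the 12 fits without 1 library and lost, for example, without mild-hypo-OPC replicate 6 (adjusted p = 0.124 from edgeR). The 6 tested genes of the sugar and sulfate donors, among them Slc35a2 (0.14), Ugp2 (0.01), Slc35b2 (-0.12) and Papss1 (-0.04), had 0 calls, and 0 of them had an unadjusted p under 0.05 in edgeR. limma-voom and DESeq2 also gave 0 calls in this group, and 0 unadjusted p under 0.05.

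Downstream of ceramide, 2 of 5 tested sphingomyelin genes were called higher and 0 lower (median log2 change 0.40), against 7.00% and 17.0% of all genes. Sgms2, a sphingomyelin synthase, had 8.11, 10.3 and 11.9 CPM in mild-hypo-OPCs and 2.76, 6.72 and 8.98 CPM in standard OPCs (log2 change 0.75, SE 0.23, edgeR adjusted p = 0.0243). It passed the filter only through mild-hypo-OPC libraries, since no standard OPC library exceeded 8.98 CPM, and with filterByExpr its adjusted p was 0.0240 from edgeR. It rested on 3 to 17 counts per standard OPC library, was not called in replicates 1 to 3 or 4 to 6 alone, after thinning or with the covariate (adjusted p = 0.154, 0.215, 0.250 and 0.901 from edgeR), and was no longer called when standard OPC replicate 3 or 4 was left out (adjusted p = 0.0698 and 0.0530 from edgeR). Smpd3, a neutral sphingomyelinase that breaks sphingomyelin down, rose by 0.40 (SE 0.14, edgeR adjusted p = 0.0416) and lost the call in 5 of the 12 fits without 1 library, with an adjusted p up to 0.137 without standard OPC replicate 1. Of 5 tested ganglioside genes 0 rose and 2 fell (median log2 change 0.06, with 3 of 5 positive). B3galt4, a galactosyltransferase of ganglioside synthesis, had 103, 135 and 151 CPM in mild-hypo-OPCs and 151, 368 and 431 CPM in standard OPCs. B3galt4 only just separated the groups, and 5.40% of all genes separated them with mild-hypo-OPCs lower. Its log2 fold change was -1.28 (SE 0.20, edgeR adjusted p = 0.000231), the call was kept in all 12 fits without 1 library, but the change was 0.02 once log2 total count was a covariate (adjusted p = 0.998 from edgeR). In RefSeq (GRCr8) B3galt4 lies directly beside the ribosomal protein gene Rps18, and whether reads were shared was not tested. St3gal5, which makes the ganglioside GM3, fell by 0.36 (SE 0.11, edgeR adjusted p = 0.0244), had a positive change with library size only (0.0809) and with the covariate (0.0677), and lost the call in 7 of the 12 fits without 1 library, with an adjusted p up to 0.0767 without mild-hypo-OPC replicate 1.

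Calls among breakdown and acetate genes stand beside 7.00% of all genes called higher and 17.0% called lower. Of 13 tested lysosomal genes 1 rose, Gm2a, the activator protein of ganglioside breakdown with 75.3, 84.5 and 91.8 CPM in mild-hypo-OPCs and 57.0, 69.1 and 76.6 CPM in standard OPCs (log2 change 0.28, edgeR adjusted p = 0.0246). Without standard OPC replicate 2 its adjusted p was 0.0593. The enzymes that degrade galactosylceramide and sulfatide, Galc (0.25, adjusted p = 0.289 from edgeR) and Arsa (0.29, adjusted p = 0.105 from edgeR), did not pass the test. Of 4 tested sphingosine phosphate genes and 5 tested genes of acetylaspartate and acetate use, 0 were called by edgeR, limma-voom or DESeq2, and 0 and 1 had an unadjusted p under 0.05 with each tool. In edgeR that gene was Nat8l, the synthase of N-acetylaspartate, with a change of 0.26 (adjusted p = 0.0897 from edgeR). Sptlc3, Degs2, Elovl3 and Sgpp2 had no count in any of the 12 libraries, which allows a level of up to 0.0625 CPM over all libraries together (counting error only). B4galnt1, chosen after its values were seen, was below the filter and was not tested, with 4.01 to 6.64 CPM in mild-hypo-OPCs (24 to 53 counts) but 0 to 3.70 CPM in standard OPCs (0 to 7 counts).

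**Figure D4:**
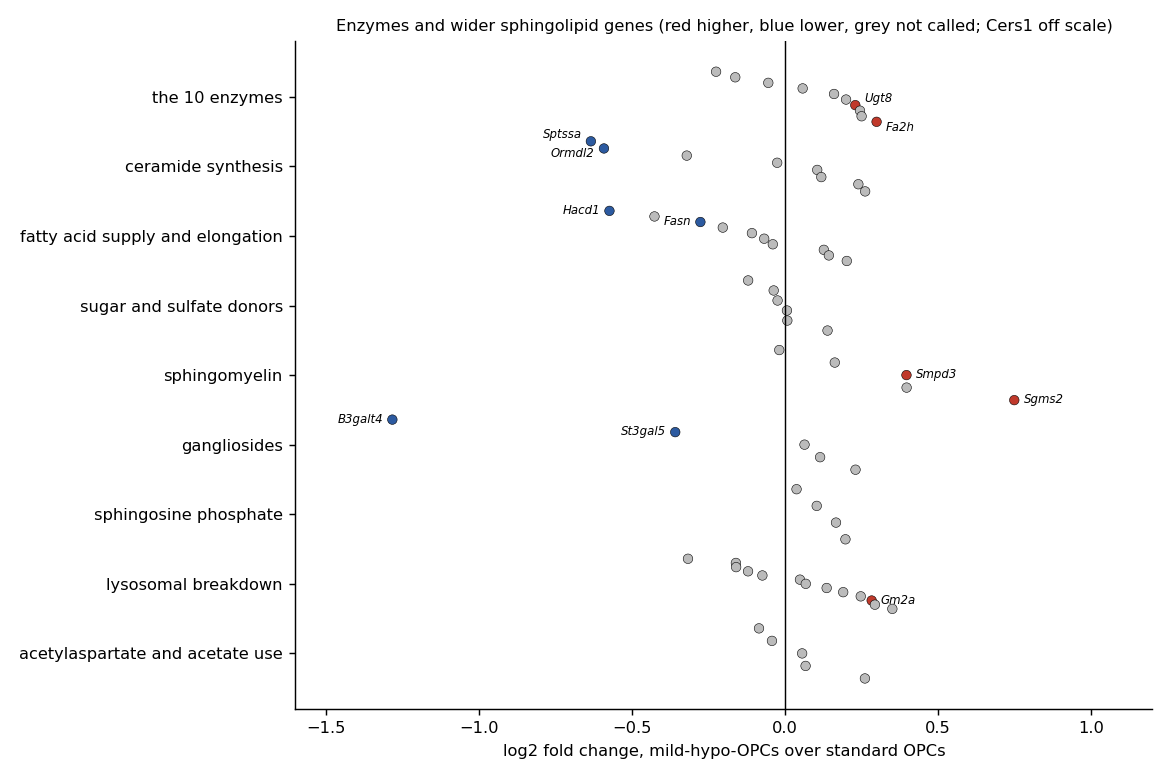
Log2 fold change (horizontal axis) of the 10 enzymes and of the tested genes of the wider sphingolipid list, 1 point per gene and 1 row per gene group; red points were called higher, blue lower and grey not called. The calls run from B3galt4 (-1.28) to Sgms2 (0.75), and Cers1 (-3.46, few counts) lies outside the axis.

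The choice of scaling and of libraries moved the members as a group. With limma-voom 2 members and with DESeq2 3 members were called higher, and upper-quartile factors gave 5. Set against the median of all genes at the same scaling, library size only gave 0.24 for Ugt8, 0.30 for Fa2h and -0.22 for Gal3st1. These values lie close to those with TMM factors by construction, since a change of scaling moves all genes by nearly the same amount. They are therefore no separate check. After every library was thinned to the smallest total, Ugt8 (0.26, adjusted p = 0.0491 from edgeR) and Fa2h (0.41, adjusted p = 0.0217 from edgeR) were again called. With log2 total count as a covariate 0 members were called, the median of the members was -0.02 and 5 of the 10 had a positive change. Every mild-hypo-OPC library was deeper than every standard OPC library, so depth and condition cannot be told apart in that fit.

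**Figure D5:**
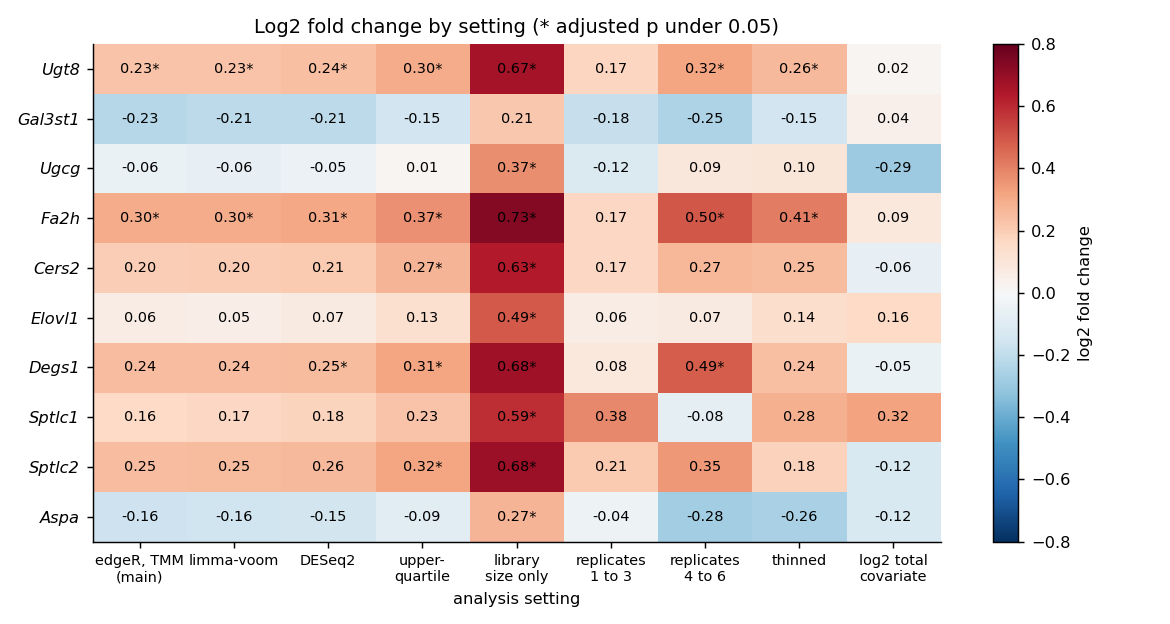
Log2 fold change (colour and number in each cell) of the 10 enzyme genes (vertical axis) under 9 settings (horizontal axis); an asterisk marks an adjusted p under 0.05. Ugt8 and Fa2h carry an asterisk in 7 of the 9 columns and not with replicates 1 to 3 only or with log2 total count as a covariate, and with library size only every gene is positive.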

How the data were processed

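Bulk RNA-seq libraries of rat OPCs in 2 groups of 6 were grouped by their labels. Per the labels and the methods, the authors used Trimmomatic for trimming, STAR for alignment (build mRatBN7.2) and RSEM for gene estimates. The deposited table holds counts, as whole numbers without normalization. How RSEM estimates became whole is not given in the sources used here. The table has 12 library columns, and 0 were left unused. All 30 within-group pairs differed beyond counting noise (chi-square per degree of freedom at least 3.22), and each library was counted as a sample.

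The filter of the study's methods, more than 10 CPM in 1 or more libraries, was used, here relative to the library total before TMM scaling. Genes were tested in R 4.3.3 with edgeR 4.0.16 (TMM, glmQLFit, glmQLFTest, condition as the only term), with Benjamini-Hochberg adjustment over 8938 genes at 0.05. Standard errors follow from the F statistic. limma 3.58.1 (voom, the method of the study) and DESeq2 1.42.0 were alternatives, and the methods were tested on simulated data. Further alternatives were other scalings and filters, the replicate number as a block, parts of the libraries, thinning, and log2 total count as a covariate. Removal of ribosomal RNA rows was added after seeing the data. Members, lists and alternatives were chosen with earlier results of these data known. Named genes are the 10 members, the called genes of the wider list and, for Ugt8, Fa2h and Gal3st1, the 3 genes with the highest r of log2 CPM (prior count 2). Uncalled or untested genes of the wider list, and uncalled markers, are outside this rule and were chosen after their values were seen. Coordinates of promoters are those of GRCr8, which is not the build of the counts, and no transcript lengths were used, so levels are not compared between genes. Depth per library (1356079 to 9022324 counts) limits precision. An oligodendrocyte marker was left out of its list and is not reported here.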

Additional observations from a re-analysis of the deposited data

How the results depend on the processing

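The number of members called higher, 2 with all libraries, was 9 with library size only, 5 with upper-quartile factors and 0 with replicates 1 to 3 only or with log2 total count as a covariate. Over the fits that left out 1 library it ranged from 0 to 3, and 0 members were called without standard OPC replicate 3, 4, 5 or 6. Members called lower stayed at 0 in every setting run. In the wider list, 3 higher became 45 (library size only), 7 (upper-quartile), 5 (DESeq2) and 0 (replicates 1 to 3, replicates 4 to 6, and the covariate), with a range of 1 to 5 without 1 library; 7 lower became 2, 1, 0 and 3 (library size only, replicates 1 to 3, the covariate, and thinning), with a range of 4 to 9. Over all genes, 626 higher became 5515, 1136, 53 and 0 (library size only, upper-quartile, replicates 1 to 3, the covariate), and 1520 lower became 405, 343 and 43 (library size only, replicates 1 to 3, the covariate). Library size only turned the direction of Gal3st1 (0.21), Aspa (0.27), Ugcg (0.37), Fasn (0.17) and St3gal5 (0.0809). The covariate turned Gal3st1 (0.0403), Cers2 (-0.0643), Degs1 (-0.0534), Sptlc2 (-0.12), Hacd1 (0.17), St3gal5 (0.0677) and B3galt4 (0.0228). Sptlc1 turned in replicates 4 to 6 (-0.0784), and Ugcg turned with upper-quartile factors (0.0129), in replicates 4 to 6 (0.0899), with thinning (0.10) and in 3 fits without 1 library (range -0.12 to 0.00867). The cause of these changes was not tested. Of 495 single-gene alternatives, 384 kept direction and side of the threshold, where an uncalled gene that stayed uncalled also counts. Among the called genes this ran from 6 of 25 (Fasn) to 24 of 25 (B3galt4), with 18 of 25 for Ugt8 and 19 of 25 for Fa2h. Without 1 library the difference in log2 ratio lay between 0.15 and 0.30 for Ugt8 to Ugcg, -0.51 and -0.36 for Gal3st1 to Ugt8, 0.05 and 0.18 for Fa2h to Cers2, and 0.01 and 0.23 for Sptlc2 to Sptlc1.

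Same-numbered libraries had correlations of -0.28 to 0.30 in their deviations from the group means, and 1 of 6 correlated best with its own number. Pairing by replicate number was therefore not seen in this measure. Depth and composition also enter these deviations, so the measure cannot decide whether equal numbers mark a shared culture. With the replicate block 2 members were called higher and 0 lower, with 2 higher and 6 lower in the wider list and 572 higher and 1471 lower over all genes. Depth limits Ugcg and Sptlc1 most, with 17 and 23 counts in the shallowest library.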
